A study of Homo sapiens with 4 samples.

Results

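Wnt signalling was followed through 10 genes, chosen by name from the 31907 gene names that had a count in any library. They were the ligands WNT5A, WNT5B and WNT7B, the receptors FZD2 and FZD7, the secreted modulators DKK1, DKK3 and SFRP1, the feedback inhibitor AXIN2 and the transcription factor LEF1. All 10 passed the filter on low counts that left 16361 genes for testing. HGC-27, a human gastric cancer (GC) cell line grown as an adherent culture, was given either PBS or recombinant human IL-17B (rIL-17B) at 200 ng/ml for 48 h, with 2 libraries of each. The labels name no genetic change in either group and give all 4 libraries as this single line. The labels do not say whether the replicates were separate cultures, so p-values measure only the spread between these libraries, which may be technical. Libraries were made by Smart-seq2, which primes cDNA on the poly(A) tail and amplifies it by PCR.

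Wnt proteins are secreted lipid-modified ligands that bind Frizzled receptors on the cell surface. In the β-catenin branch, Frizzled and LRP co-receptors stabilize β-catenin, which joins TCF/LEF factors on DNA and switches on targets that include the pathway's own inhibitors. In β-catenin-independent branches, for which WNT5A is best known, Frizzled and ROR receptors act on cell polarity and movement. DKK and SFRP proteins keep ligands or co-receptors from signalling, and the β-catenin branch maintains stem cells of the gastrointestinal epithelium.

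RefSeq promoter windows are shown for genes with low values in rIL-17B replicate 1. They are those of DKK1 and LEF1, the listed β-catenin targets among the 10 genes with a window, and both windows of WNT5B. Of the 3 ligands among the 10 genes, WNT5B had the lowest level in that library. WNT5A was also low there, and its 2 windows are not shown. The RefSeq table used here (GRCh38.p14) held 6 windows for 4 of the 10 genes, each from 250 bases before to 50 bases after a start site. Capitals mark the TCF/LEF core letters CTTTGA and CTTTGT on either strand.
DKK1, chr10:52314031-52314330, plus strand: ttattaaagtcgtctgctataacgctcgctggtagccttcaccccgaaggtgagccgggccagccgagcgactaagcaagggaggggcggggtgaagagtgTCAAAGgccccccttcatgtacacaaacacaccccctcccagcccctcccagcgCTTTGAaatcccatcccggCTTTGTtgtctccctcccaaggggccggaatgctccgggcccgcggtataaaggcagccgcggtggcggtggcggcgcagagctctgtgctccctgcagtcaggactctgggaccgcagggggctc
LEF1, chr4:108166252-108166551, minus strand: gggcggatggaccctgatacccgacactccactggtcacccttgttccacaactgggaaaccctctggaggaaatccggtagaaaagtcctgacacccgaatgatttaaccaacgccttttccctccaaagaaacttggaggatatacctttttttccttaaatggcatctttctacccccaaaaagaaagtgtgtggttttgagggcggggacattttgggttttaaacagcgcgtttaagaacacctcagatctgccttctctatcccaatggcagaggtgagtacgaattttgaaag
WNT5B, first window, chr12:1616806-1617105, plus strand: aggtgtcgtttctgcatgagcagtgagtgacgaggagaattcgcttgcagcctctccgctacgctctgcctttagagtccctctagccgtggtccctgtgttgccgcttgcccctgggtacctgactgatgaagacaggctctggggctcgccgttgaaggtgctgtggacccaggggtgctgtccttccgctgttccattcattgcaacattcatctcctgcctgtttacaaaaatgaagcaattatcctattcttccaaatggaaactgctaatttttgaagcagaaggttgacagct
WNT5B, second window, chr12:1628981-1629280, plus strand: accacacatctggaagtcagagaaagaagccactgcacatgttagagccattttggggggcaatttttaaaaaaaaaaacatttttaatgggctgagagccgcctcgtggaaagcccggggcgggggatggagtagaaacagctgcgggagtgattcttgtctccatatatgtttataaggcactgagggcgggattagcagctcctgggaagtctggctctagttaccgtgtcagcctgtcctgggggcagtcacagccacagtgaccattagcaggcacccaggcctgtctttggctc
DKK1 held 3 matches, CTTTGA at position -149 on the opposite strand, CTTTGA at -95 and CTTTGT at -76, given as the leftmost base of the match, with -1 the last base before the start site. The other 5 windows, those of LEF1, WNT5B and WNT5A, held none. They lie inside the GENCODE 29 bounds of their genes. LEF1, on the minus strand, begins at 108168956 and WNT5B at 1529891. Start sites outside the windows were not searched. Of all 35116 windows of the same length, from which no chromosome was left out, 26.2% held at least 1 of the motifs. CTTTGA was in 12.9% and CTTTGT in 16.1%, so a match was common and is only a description of these letters.

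The libraries held between 12888029 and 17555879 counts. CPM is a gene's count per 1000000 counts of its own library, and 3 counts, the smallest level taken as shown, corresponded to 0.171 to 0.233 CPM. Floors and intervals cover counting error only. PCR copies were counted separately, so the intervals may be too narrow even for that. rIL-17B replicate 1 stood apart from the other 3 libraries, with 16 counts of COL1A2 where they had 67635 to 87731. Whether it came from the same culture is not given in the sources used here, so its ratios to PBS compare libraries rather than treatments alone. At least 2-fold differences were found in 516 genes (3.15% of those tested) between the PBS libraries and in 3445 genes (21.1%) between the rIL-17B libraries. Of the 10 Wnt genes, 0 were 2-fold apart between the PBS libraries and 6 between the rIL-17B libraries.
Marker levels moved with that library. The 8 fibroblast markers, led by COL1A1, summed to 18824 and 18403 CPM with PBS, 552 CPM in rIL-17B replicate 1 and 15972 CPM in replicate 2, and all 8 were at least 2-fold lower in replicate 1 than in both PBS libraries. The 10 neural markers summed to 412 and 620 CPM with PBS and to 28.1 and 300.4 CPM in rIL-17B replicates 1 and 2, and 6 of them were at 0 in replicate 1, OLIG1 and OLIG2 included, against 1 in each other library. The 6 mesenchymal markers summed to 538 CPM in replicate 1 and to between 28315 and 34155 CPM in the others, mostly FN1. The sum of the 8 epithelial markers was higher, at 785 and 793 CPM in the PBS libraries against 1826 and 1008 CPM after rIL-17B, and was carried by the keratins KRT8 and KRT18. EPCAM and CLDN7 were also above both PBS libraries in each rIL-17B library, at low levels. EPCAM had PBS values of 3.40 and 3.03 CPM, against 5.34 CPM for replicate 1 and 3.87 CPM for replicate 2. CLDN7 had PBS values of 1.19 and 1.01 CPM, against 1.71 CPM for replicate 1 and 1.65 CPM for replicate 2. KRT19, CLDN4 and CDH1 did not follow. KRT19 had 2.96 and 3.34 CPM with PBS, 0.0684 CPM (1 count) in replicate 1 and 3.30 CPM in replicate 2. CLDN4 was below both PBS libraries in both rIL-17B libraries, and CDH1 stayed at or under 0.753 CPM. Of the 8 gastric markers, TFF1, PGC and GAST had no count in any library and the summed level was at most 4.42 CPM. The 9 monocyte markers, listed because the label's library protocol speaks of monocytes, summed to between 8.55 and 20.1 CPM, and in replicate 1 6 of them were at 0. The part of these shifts in the Wnt values below was not tested. In bulk RNA, fewer cells of a type and less RNA per cell cannot be told apart.

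For none of the 10 Wnt genes was a difference between rIL-17B and PBS shown beyond the spread between libraries. The quasi-likelihood test of edgeR, Benjamini-Hochberg adjusted over all genes, called 0 of the 10 at an adjusted p under 0.05, as it did 0% of the 16361 genes tested, and their smallest adjusted p was 0.661. At an unadjusted p under 0.05 the test also gave 0 of the 10, against 1.38% of all genes, and DESeq2 gave 0 as well. The median log2 fold change was -0.73 over the 10 genes and -0.03 over all genes tested. As levels, 7 genes (WNT5A, WNT5B, FZD7, DKK1, DKK3, SFRP1 and LEF1) had both rIL-17B values below both PBS values, a pattern found in 27.5% of all genes. WNT7B and FZD2 were higher in both as CPM, as were 31.5% of all genes, although the fitted log2 fold change of FZD2 after TMM scaling was -0.02. AXIN2 overlapped between the groups. The sizes were unequal: 6 genes (WNT5A, WNT5B, DKK1, DKK3, SFRP1 and LEF1) were at least 2-fold lower than both PBS libraries in rIL-17B replicate 1, against 19.3% of all genes, and 0 were in replicate 2, against 1.05%. None was at least 2-fold higher in replicate 1 (2.54% of all genes) or in replicate 2 (0.244%). Exact permutation of 4 libraries has 0.333 as its smallest two-sided p, so single genes were not tested this way.

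**Figure D1:**
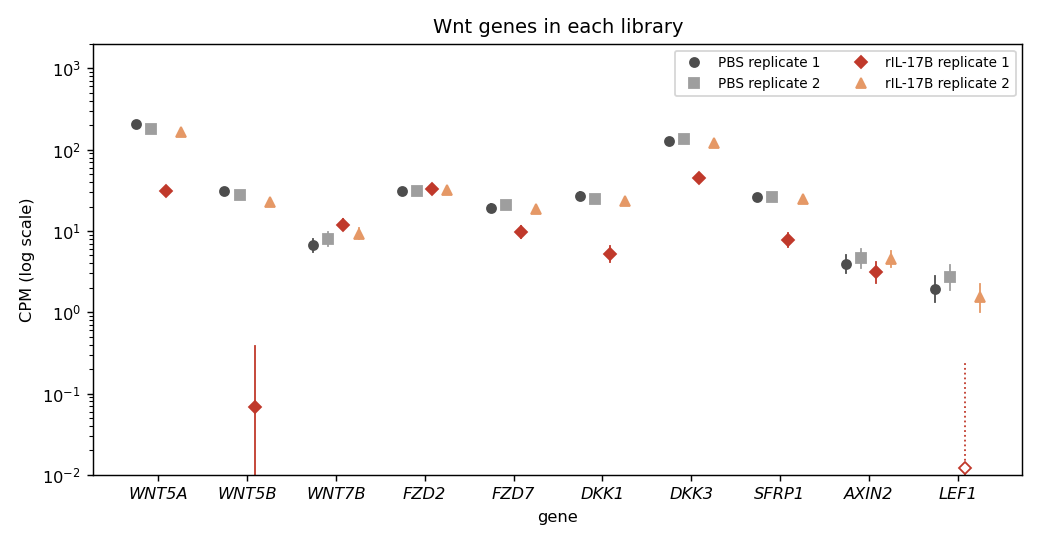
Level of each Wnt gene in each of the 4 libraries, in CPM on a log axis. Points are single libraries, bars are exact 95% Poisson intervals of the count, and the open diamond at the axis floor marks LEF1 in rIL-17B replicate 1, which had 0 counts. For 7 of the 10 genes the points of both rIL-17B libraries lie below both PBS points, with replicate 2 close to PBS and replicate 1 far below.

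Among the ligands, WNT5A (ENSG00000114251, chromosome 3, 55465715 to 55490539 on GRCh38, GENCODE 29) was the most abundant. It had 3256 and 2335 counts with PBS, 205 and 181 CPM, and 453 and 2933 counts with rIL-17B, 31.0 and 167 CPM in replicates 1 and 2. Both rIL-17B libraries lay below both PBS libraries, and the PBS libraries themselves differed by more than counting error, with a ratio of 0.885 (95% interval 0.839 to 0.934). Relative to the pooled PBS libraries WNT5A was at 0.16 in replicate 1 (0.145 to 0.176) and at 0.86 in replicate 2 (0.822 to 0.90). The fitted log2 fold change was -0.99 (standard error, SE, 0.91, edgeR adjusted p = 0.669). WNT5A-AS1, an antisense RNA within an intron of WNT5A, had 65 and 48 counts with PBS and 6 and 41 with rIL-17B.
WNT5B (ENSG00000111186, chromosome 12, 1529891 to 1647243), the closest relative of WNT5A, had 498 and 353 counts with PBS and 1 and 398 with rIL-17B. The single count in replicate 1 gave 0.0684 CPM, below the floor of 3 counts, where the PBS libraries had 31.3 and 27.4 CPM and replicate 2 had 22.7 CPM. Its ratio to PBS was 0.00232 in replicate 1 (5.85e-05 to 0.0129) and 0.767 in replicate 2 (0.679 to 0.865). Despite that difference in 1 library the log2 fold change of -1.37 had an SE of 1.99 (edgeR adjusted p = 0.74). FBXL14, which overlaps an intron of WNT5B on the opposite strand, had between 167 and 202 counts in every library.
WNT7B (ENSG00000188064, chromosome 22, 45920362 to 45977129), a ligand of the β-catenin branch, was the only ligand of the 3 with higher levels in both rIL-17B libraries. It had 106 and 102 counts with PBS, 6.66 and 7.91 CPM, and 175 and 162 counts with rIL-17B, 11.97 and 9.23 CPM. The ratio to PBS was 1.66 in replicate 1 (1.35 to 2.04) and 1.28 in replicate 2 (1.03 to 1.58), and the PBS libraries themselves had a ratio of 1.19 (0.896 to 1.57). The log2 fold change was 0.46 (SE 0.23, edgeR adjusted p = 0.661).

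Of the receptors, FZD2 (ENSG00000180340, chromosome 17, 44557459 to 44559570), a single-exon Frizzled gene, varied little, with 497 and 396 counts with PBS, 31.2 and 30.7 CPM, and 479 and 553 counts with rIL-17B, 32.8 and 31.5 CPM. Its log2 fold change was -0.02 (SE 0.11, edgeR adjusted p = 0.931), and the sign was positive, at 0.05, when libraries were scaled by their totals alone. FZD7 (ENSG00000155760, chromosome 2, 202034587 to 202038445), a Frizzled studied in gastrointestinal stem cells, had 304 and 271 counts with PBS, 19.1 and 21.0 CPM, and 142 and 327 counts with rIL-17B, 9.72 and 18.6 CPM. Replicate 1 was at 0.487 of PBS (0.402 to 0.586), which just missed the 2-fold limit against the lower of the PBS libraries, and replicate 2 at 0.933 (0.812 to 1.07), an interval that includes 1. The log2 fold change was -0.55 (SE 0.42, edgeR adjusted p = 0.661).
Per kb of exon, FZD2 stood at 2.99 and 2.67 times FZD7 in the PBS libraries, 6.16 times in rIL-17B replicate 1 and 3.09 times in replicate 2.

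The secreted modulators were lower together in rIL-17B replicate 1. DKK1 (ENSG00000107984, chromosome 10, 52314296 to 52318042), which blocks the LRP co-receptors and is itself a β-catenin target, had 431 and 319 counts with PBS, 27.1 and 24.8 CPM, and 77 and 410 counts with rIL-17B, 5.27 and 23.4 CPM. Its ratio to PBS was 0.202 in replicate 1 (0.158 to 0.256) and 0.897 in replicate 2 (0.793 to 1.01), and its log2 fold change was -0.88 (SE 0.82, edgeR adjusted p = 0.67). PRKG1-AS1, which shares exon sequence with DKK1 on the other strand, had at most 3 counts in any library. The window of DKK1 held 3 TCF/LEF core matches. The windows used for LEF1 and WNT5B, which lie inside those genes, held none. These windows were shown because the genes were low in replicate 1, so a relation between matches and levels was not tested.
DKK3 (ENSG00000050165, chromosome 11, 11963106 to 12009769), a divergent family member whose effect on Wnt signalling depends on the cell, had 2062 and 1752 counts with PBS, 130 and 136 CPM, and 656 and 2095 counts with rIL-17B, 44.9 and 119 CPM. It was at 0.339 of PBS in replicate 1 (0.311 to 0.368) and at 0.901 in replicate 2 (0.854 to 0.95), with a log2 fold change of -0.73 (SE 0.57, edgeR adjusted p = 0.661).
SFRP1 (ENSG00000104332, chromosome 8, 41261958 to 41309497) encodes a secreted Frizzled-like protein that binds Wnt ligands. It had 411 and 335 counts with PBS, 25.8 and 26.0 CPM, and 114 and 429 counts with rIL-17B, 7.80 and 24.4 CPM. The ratio to PBS was 0.301 in replicate 1 (0.245 to 0.367) and 0.943 in replicate 2 (0.836 to 1.06), and the log2 fold change was -0.72 (SE 0.65, edgeR adjusted p = 0.668). In replicate 2 the intervals of DKK1 and SFRP1 included 1 and that of DKK3 did not. These intervals cover counting error only, and DKK3 had more counts, so the contrast does not set DKK3 apart.

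AXIN2 and LEF1 had the lowest levels of the 10 genes per kb of exon in the PBS libraries and in rIL-17B replicate 2, and in replicate 1 WNT5B was below AXIN2. AXIN2 (ENSG00000168646, chromosome 17, 65528563 to 65561647), a scaffold of the β-catenin destruction complex and a widely used target gene, had 63 and 60 counts with PBS, 3.96 and 4.66 CPM, and 46 and 79 counts with rIL-17B, 3.15 and 4.50 CPM. The groups overlapped, and the ratio to PBS was 0.737 in replicate 1 (0.513 to 1.04) and 1.05 in replicate 2 (0.784 to 1.41). The log2 fold change was -0.23 (SE 0.36, edgeR adjusted p = 0.755).
LEF1 (ENSG00000138795, chromosome 4, 108047545 to 108168956), a DNA-binding partner of β-catenin, had 31 and 35 counts with PBS, 1.95 and 2.72 CPM, and 0 and 27 counts with rIL-17B, which is 1.54 CPM in replicate 2. Against the floor of 3 counts in replicate 1, LEF1 was at least 11.2-fold lower there than in the pooled PBS libraries, and the exact 95% interval of its ratio reached up to 0.113, which is 8.83-fold lower. Replicate 2 was at 0.671 of PBS (0.412 to 1.07). The fitted log2 fold change of -1.58 (SE 1.63, edgeR adjusted p = 0.682) depends on the prior count and is no bound. LEF1-AS1, which shares exon sequence with LEF1, had at most 3 counts.

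**Figure D2:**
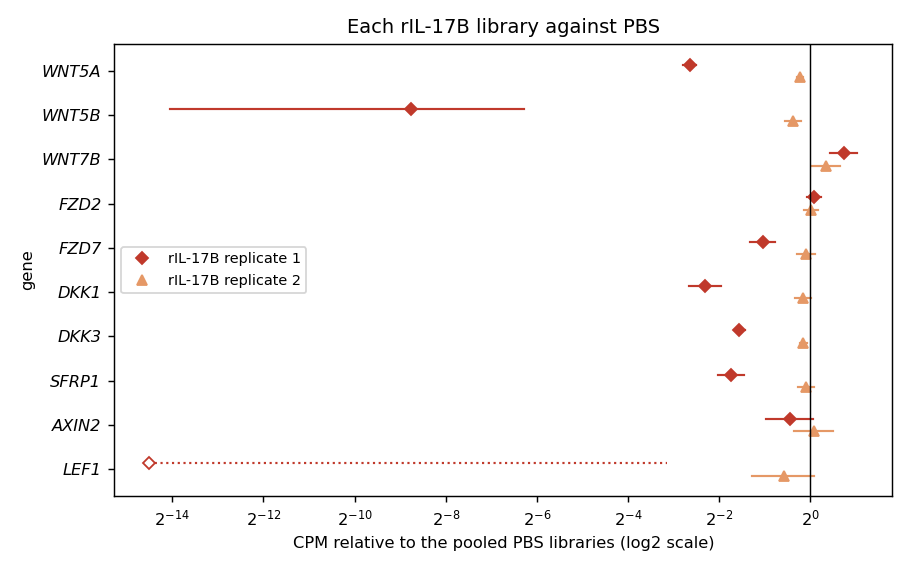
Ratio of each rIL-17B library to the pooled PBS libraries for the 10 Wnt genes, on a log2 axis, with 95% exact intervals for counting error. The open diamond at the left marks LEF1 in replicate 1, which had 0 counts, and the vertical line is a ratio of 1. Replicate 2 lies between 0.671 and 1.28, and replicate 1 between 0 and 1.66.

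The calls depended on which rIL-17B library was kept. Without rIL-17B replicate 1, edgeR called 0 of the 10 genes, against 2.95% of all genes, and the median log2 fold change of the 10 was -0.13. In that comparison WNT5B had a log2 fold change of -0.38 (SE 0.13, edgeR adjusted p = 0.0983) and WNT5A one of -0.21 (SE 0.09, edgeR adjusted p = 0.203), and these were the 2 genes with an unadjusted p under 0.05. Without rIL-17B replicate 2, 8 of the 10 passed, against 55.1% of all genes, with 7 lower (31.9% of all genes were called lower) and WNT7B higher (23.2% called higher). FZD2 and AXIN2 did not pass, with log2 fold changes of -0.06 and -0.58 and edgeR adjusted p of 0.731 and 0.117. Each of these fits takes its spread from the PBS pair and assumes that the lone rIL-17B library varies in the same way.

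Levels were compared between genes as CPM per kb of exon, with the length of the merged exons of all GENCODE 29 transcripts of a gene. That length includes exons that these cells may not use, with 21 transcripts for LEF1 and 1 for FZD2. The order between genes is therefore approximate. With PBS, DKK3 (26.2 ± 0.879, SD, n = 2) and WNT5A (26.1 ± 2.25) headed the order and did not differ beyond their spread. FZD2 followed with 14.7 ± 0.175, DKK1 with 11.8 ± 0.752 and WNT5B with 6.82 ± 0.644. SFRP1 (5.44 ± 0.0225) and FZD7 (5.20 ± 0.351) overlapped, and WNT7B (1.44 ± 0.175), AXIN2 (0.824 ± 0.094) and LEF1 (0.435 ± 0.101) closed the order without overlap. With rIL-17B the SD came near the mean or exceeded it for WNT5A (13.4 ± 13.01), WNT5B (2.64 ± 3.71), DKK1 (6.49 ± 5.80) and LEF1 (0.143 ± 0.203), so their places in the order were not resolved, while FZD2 had 15.2 ± 0.427. WNT5A supplied 61.7% and 59.6% of the summed WNT ligand level per kb with PBS, 22.3% in rIL-17B replicate 1 and 59.1% in replicate 2. In replicate 1 WNT10B (22.5%) stood level with it, followed by WNT9A (15.7%) and WNT7B (12.6%), and the summed ligand level was 18.8 against 44.8 and 41.1 with PBS and 38.2 in replicate 2. WNT5A exceeded WNT7B per kb by 21.0 and 15.6 times with PBS, 1.77 times in replicate 1 and 12.4 times in replicate 2. The summed Frizzled level per kb was nearer between libraries, at 52.8 and 50.8 with PBS and 43.6 and 48.8 with rIL-17B, and FZD6 and FZD2 were its main parts in all 4. The antagonist list summed to 55.0 and 59.3 with PBS, 16.7 in replicate 1 and 48.9 in replicate 2.

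**Figure D3:**
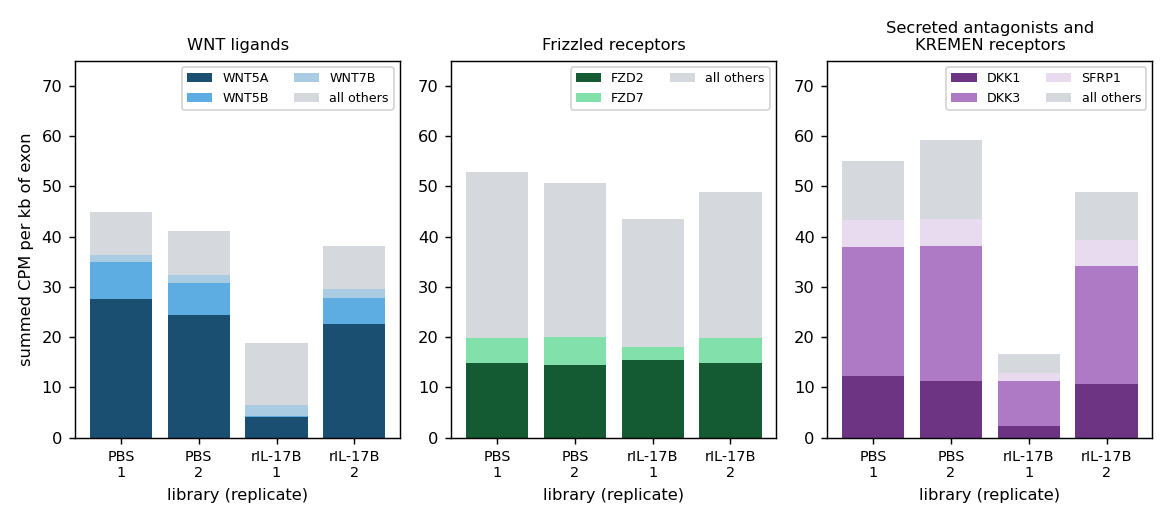
Summed level of WNT ligands, Frizzled receptors and the antagonist list, KREMEN receptors included, in each library, as CPM per kb of exon stacked by gene, with genes outside the 10 in grey. Ligands and antagonists are lower in rIL-17B replicate 1 (18.8 and 16.7) than in any other library, and the Frizzled bar of replicate 1 (43.6) is closer to the rest.

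The other genes of the pathway were followed through lists of ligands, secretion factors, receptors, antagonists, the R-spondin module, cytoplasmic components, transcription factors, targets and β-catenin-independent components. The lists held 106 genes, of which 101 had a count and 85 were tested, and edgeR called 0 of the 85 (0% of all genes). APC2, chosen after its values were seen, was the only one with an unadjusted p under 0.05, at 29.2 and 39.4 CPM in the PBS libraries against 14.8 and 21.8 CPM after rIL-17B (log2 fold change -0.96, SE 0.32, edgeR adjusted p = 0.661). Its exons overlap a counted gene on the opposite strand, so its counts are uncertain. Exon overlap with a counted gene also holds for others named in this text, among them RNF43, WLS, DAAM2, KRT8 and KRT18. Of the 75 tested genes outside the 10, 27 were lower in both rIL-17B libraries without overlap and 15 higher, where 27.5% and 31.5% of all tested genes were.
Leading cytoplasmic genes varied little. CTNNB1, which encodes β-catenin, had 350.4 and 375 CPM in the PBS libraries against 384 and 348 CPM after rIL-17B, and DVL3, a Dishevelled adaptor, had 175 and 184 CPM in the PBS libraries against 178 and 173 CPM after rIL-17B. The median log2 fold change of the 13 cytoplasmic genes outside the 10 was -0.08. WLS, the carrier that brings Wnt proteins to the cell surface, had between 101 and 107 CPM in every library, and the secretion list, WLS and PORCN, had a median of -0.21. PORCN, which adds the lipid to Wnt proteins, had 15.2 and 16.8 CPM in the PBS libraries against 9.99 and 16.1 CPM after rIL-17B.
Receptors outside the 10 had a median of -0.22 over 13 genes, and 5 were at least 2-fold lower in replicate 1, against 19.3% of all genes. PTK7, a co-receptor of the polarity branch, had 99.2 and 104 CPM in the PBS libraries against 10.1 and 84.6 CPM after rIL-17B, while the co-receptor LRP5 had 103 and 105 CPM in the PBS libraries against 127 and 108 CPM after rIL-17B. Antagonists outside the 10 had a median of -0.62 over 6 genes. SFRP2, a relative of SFRP1, had 11.7 and 19.4 CPM with PBS, 0 counts in replicate 1 and 7.46 CPM in replicate 2, and SFRP4 had 11.5 and 9.54 CPM with PBS, 0 counts in replicate 1 and 9.57 CPM in replicate 2.
The 7 ligands outside the 10 that were tested had a median of 0.33, with WNT10B at 5.72 and 6.52 CPM in the PBS libraries against 11.2 and 7.92 CPM after rIL-17B. The 5 tested R-spondin module genes had a median of 0.61, and all 5 were above both PBS libraries in replicate 1, as were 50.1% of all genes. RNF43, a ubiquitin ligase that removes Frizzled receptors and is a β-catenin target, had 16.98 and 13.97 CPM in the PBS libraries against 33.3 and 18.7 CPM after rIL-17B (log2 fold change 0.66, SE 0.31, edgeR adjusted p = 0.661).
Targets outside the 10 had a median of 0.05 over 12 genes. MYC had 202 and 214 CPM in the PBS libraries against 332 and 225 CPM after rIL-17B, and CCND1, which encodes cyclin D1, had 178 and 157 CPM in the PBS libraries against 89.2 and 156 CPM after rIL-17B. The 12 transcription genes outside the 10 had a median of -0.18 and the 13 β-catenin-independent genes one of -0.59, of which 6 were at least 2-fold lower in replicate 1 (19.3% of all genes). Among listed targets were genes above PBS in replicate 1 (RNF43, MYC) and below it (DKK1, LEF1, CCND1).

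**Figure D4:**
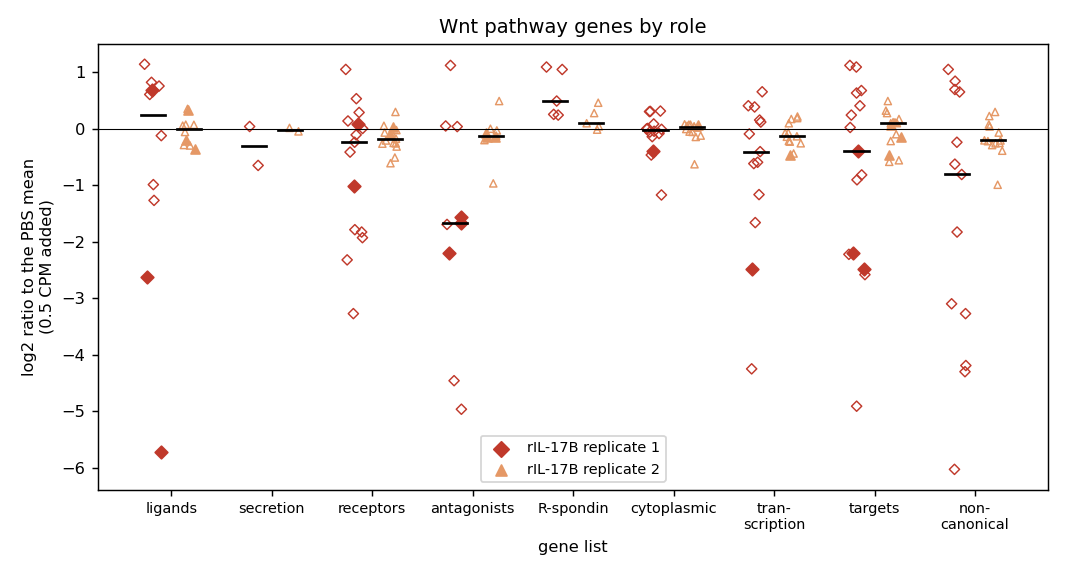
Log2 ratio of each rIL-17B library to the PBS mean, with 0.5 CPM added to each value, for the tested Wnt pathway genes by list. Diamonds are replicate 1, triangles replicate 2, filled symbols the 10 Wnt genes and bars the median of the list, and a gene in several lists is drawn in each. The antagonist median is -1.67 in replicate 1 and -0.13 in replicate 2, and the R-spondin median is 0.49 and 0.09.

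For each of the 10 genes, the pathway gene with the nearest profile was sought by the distance of centred log2(CPM + 0.5) values over the 4 libraries, among 75 candidates. FZD2 was nearest to WLS (distance 0.0611), WNT7B to WNT10B (0.119), LEF1 to SOX9 (0.128) and SFRP1 to ROR1 (0.175), which was also nearest to DKK3 (0.247). WNT5B was nearest to DAAM2 (0.341) and WNT5A to NKD2 (0.395). These distances describe 4 libraries, of which 1 stands apart.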

How the data were processed

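RNA-seq of 4 HGC-27 libraries was analysed. Per gene name the authors deposited raw counts, whole numbers without normalization, and left out names with no count. The submitters' processing notes name the hg38 build and, with no role or order, Bowtie2 2.2.3, HISAT2 2.1.0, TopHat2 and HTSeq 0.6.0; the annotation and strand setting are not given in the sources used here. Coordinates and exon lengths came from GENCODE 29 (GRCh38), in which 97.8% of the names were found once. A name listed more than once always had equal counts and was used once (83 to 98 names per library), and 22 to 25 entries per library with names turned into date-like numbers were left out, 0.228% to 0.244% of the counts. A missing gene was given 0 counts.

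CPM used the remaining library total. The groups were compared in R 4.3.3 by edgeR 4.0.16 with TMM factors (0.97 to 1.07), filterByExpr, quasi-likelihood F test over 16361 genes and Benjamini-Hochberg adjustment at 0.05, two-sided, with the standard error as the size of the log2 fold change divided by the square root of F. The code was tested on simulated counts, with recovery of changed genes required only at the spread of the PBS pair. Ratios to the pooled PBS counts have exact Clopper-Pearson intervals (95%). Tables were made with Python 3.11.15 and scipy 1.17.1. Alternatives were DESeq2 1.42.0, upper-quartile and total scaling, no filter, at least 10 counts in every library, a threshold of 0.1, the replicate number as a block, leaving out each library and totals of all entries.

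Named were the 10 genes, up to 3 genes of highest mean CPM from each pathway list, and nearest profiles. Marker genes, and any other gene named, were picked with their values in view. The 10 genes and the lists were chosen with earlier results of these data known.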

Additional observations from a re-analysis of the deposited data

How the results depend on the processing

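The counts of 0 called genes, 0 called Wnt genes among the 10 and 0 called pathway genes held with upper-quartile or total scaling, DESeq2, no filter, at least 10 counts in every library, a threshold of 0.1 and the replicate block. Leaving out each library in turn gave 0 to 9489 called genes, 0 to 8 of the 10 and 0 to 56 pathway genes, with a median log2 fold change of the 10 between -1.78 and -0.13. The calls came from leaving out an rIL-17B library: 504 genes and 6 pathway genes without replicate 1, and 9489 and 56 without replicate 2. Leaving out either PBS library gave 0. At an unadjusted p under 0.05, edgeR gave 226 genes, DESeq2 457, no filter 879 and at least 10 counts 462.

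The replicate block left 0 called genes, 173 at an unadjusted p under 0.05, and a median of -0.95 over the 10, with larger log2 fold changes for WNT5B (-3.46), LEF1 (-2.64) and WNT5A (-1.49). Across genes, the deviations of libraries with the same number correlated at 0.08. Nothing in the labels pairs them, so whether libraries of the same number were paired is not known. With rIL-17B replicate 1 apart from the rest, the correlation cannot decide it. FZD2 took the opposite sign with total scaling (0.052) and when PBS replicate 1 or rIL-17B replicate 1 was left out (range -0.057 to 0.019 over the 4 libraries), and AXIN2 when rIL-17B replicate 1 was left out (0.065, range -0.58 to 0.065). The cause was not tested. WNT5B and LEF1 could not be fitted with at least 10 counts in every library. Totals of all entries lowered CPM by between 1.52% and 1.73%. Of 98 refits of the 10 genes, 86 kept direction and call, 8 passed the test, all without rIL-17B replicate 2, and 4 changed sign. With 2 libraries a group, of which 1 stands apart, differences as small as those of replicate 2 were not resolved. Nor were larger ones that rested on replicate 1. WNT5B, at 0.00232 of PBS in that library, had an edgeR adjusted p of 0.74 with all 4 libraries.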

Other observations

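Chosen after their values were seen, 8 pathway genes had at most 3 counts in rIL-17B replicate 1 and at least 50 in each other library. They were 9.41% of the 85 tested pathway genes, and 571 of all tested genes (3.49%) met the same rule. Besides WNT5B these were the antagonists SFRP2 and SFRP4, the membrane inhibitor APCDD1 and the polarity genes VANGL2, PRICKLE1, PRICKLE2 and DAAM2. DAAM2, a formin-related protein, had 33.8 and 30.4 CPM with PBS, 0 counts in replicate 1 and 27.7 CPM in replicate 2. VANGL2, a core polarity protein, had 118 and 151 counts with PBS and 0 and 78 with rIL-17B.

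Without rIL-17B replicate 1, 6 of the 87 pathway genes fitted (6.9%) passed edgeR's test, against 2.95% of all genes. None was among the 10, and all were lower in replicate 2 than with PBS: SFRP2, SOX9, APC2, VANGL2, CELSR2 and APCDD1, named here for that call. SOX9, a stem cell transcription factor, had 44.7 and 62.5 CPM with PBS and 35.0 CPM in replicate 2 (log2 fold change -0.61), and 8.42 CPM in replicate 1. SFRP2 had a log2 fold change of -1.05 in the same fit. Each value of this fit rests on 1 rIL-17B library. For SFRP2 the PBS libraries themselves had a ratio of 1.66 (95% interval 1.37 to 2.02). The neural markers summed to 300.4 CPM in replicate 2 and to 412 and 620 CPM with PBS, and their part in these values was not tested. NOTUM, a secreted enzyme that inactivates Wnt proteins, was likewise picked with its values in view, at 2.51 and 2.56 CPM in the PBS libraries against 6.09 and 3.76 CPM after rIL-17B (log2 fold change 0.87, SE 0.34, edgeR adjusted p = 0.661 with all 4 libraries).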
